A study of Homo sapiens with 47 samples.

Results

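The mark-by-line interaction asks where the serotonylated histone mark H3K4me3Q5ser changed with DDC overexpression by more, or by less, than its parent mark H3K4me3 did. It was taken from 12 of the 47 samples of the series: 3 H3K4me3Q5ser and 3 H3K4me3 ChIP libraries of PC3 cells overexpressing DDC, and 3 H3K4me3Q5ser and 3 H3K4me3 ChIP libraries of PC3 cells overexpressing an empty vector. PC3 is an established human prostate cancer cell line; the constructs were transduced, and the labels name no treatment of these cells. No label gives the promoter of the constructs, and none says whether the 3 libraries of a group came from separate cultures. Of the 19535 regions in the count table, 19495 passed the filter on low counts and were tested. The 3 input libraries of each line, and its 3 RNA libraries of each line, were set beside the interaction. The regions are the combined H3K4me3Q5ser peak list of the study, so every region was chosen for signal of that mark, and 12439 of the tested regions also overlapped a peak of its combined H3K4me3 list.

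DDC, dopa decarboxylase, makes serotonin from its precursor hydroxytryptophan. Serotonin can be joined by transglutaminase 2 to the glutamine next to lysine 4 of histone H3, and on a tail already trimethylated at that lysine the product is H3K4me3Q5ser. H3K4me3 marks active promoters, and the serotonylated form sits on a subset of the same tails, so a change of the serotonylated form is best read against the change of H3K4me3 at the same place.

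The DDC transcript was near absent without the construct and low with it. Its normalised read count was 23.4, 26.9 and 30.2 in the DDC libraries, against 0, 0 and 0.844 in the empty-vector libraries, which are 23, 25 and 31 reads against 0, 0 and 1. Read pairs in regions numbered 13511040 to 16654117 per H3K4me3Q5ser library of the DDC line, against 24122654 to 24436783 in the empty-vector line. For H3K4me3 they numbered 3748396 to 4575361 in DDC libraries, against 3429714 to 4343811 in empty-vector libraries, so the H3K4me3 side sets the precision of the interaction. Counts of replicate ChIP libraries differed by little more than sampling noise, with a chi-square per degree of freedom of 1.01 to 1.14. The p-values below therefore measure mostly counting error between these libraries, which may be technical replicates, and small changes pass them; the size of a change is given with each. All values are relative to the other regions of a library, so a change common to all regions is not measured.

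Promoter sequences of 5 genes on which the results turn are shown because they span the range in base composition that the interaction followed. Each is the 250 bases upstream of the gene's start in RefSeq (GRCh38.p14), 5′ to 3′ on the gene's strand, with CG dinucleotides in capitals. EHF (chr11:34624007-34624256, plus strand), LAD1 (chr1:201399325-201399574, minus strand) and ANK3 (chr10:60733529-60733778, minus strand) lie in regions where H3K4me3Q5ser fell beyond H3K4me3. CAMK2G (chr10:73874556-73874805, minus strand) and RPS21 (chr20:62386853-62387102, plus strand) lie in regions where it rose beyond H3K4me3.
EHF: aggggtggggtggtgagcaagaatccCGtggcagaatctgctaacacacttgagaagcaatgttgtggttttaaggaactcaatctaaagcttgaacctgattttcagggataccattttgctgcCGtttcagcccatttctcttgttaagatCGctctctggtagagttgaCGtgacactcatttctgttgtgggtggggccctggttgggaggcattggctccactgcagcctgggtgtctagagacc
LAD1: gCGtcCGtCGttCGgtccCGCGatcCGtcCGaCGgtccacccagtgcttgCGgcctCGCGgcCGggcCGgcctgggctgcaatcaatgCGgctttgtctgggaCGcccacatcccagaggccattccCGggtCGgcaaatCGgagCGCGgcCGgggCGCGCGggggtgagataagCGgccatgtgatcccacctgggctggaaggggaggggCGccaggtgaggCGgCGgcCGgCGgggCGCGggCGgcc
ANK3: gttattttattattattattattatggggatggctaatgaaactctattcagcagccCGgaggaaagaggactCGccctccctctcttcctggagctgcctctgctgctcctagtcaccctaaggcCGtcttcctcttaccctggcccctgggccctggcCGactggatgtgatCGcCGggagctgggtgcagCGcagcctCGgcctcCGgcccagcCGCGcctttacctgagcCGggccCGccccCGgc
CAMK2G: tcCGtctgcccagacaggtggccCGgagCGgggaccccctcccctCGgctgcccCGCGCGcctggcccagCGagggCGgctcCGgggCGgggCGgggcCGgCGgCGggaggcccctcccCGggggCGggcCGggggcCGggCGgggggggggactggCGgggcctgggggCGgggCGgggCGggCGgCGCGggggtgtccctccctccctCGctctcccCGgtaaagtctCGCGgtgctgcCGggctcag
RPS21: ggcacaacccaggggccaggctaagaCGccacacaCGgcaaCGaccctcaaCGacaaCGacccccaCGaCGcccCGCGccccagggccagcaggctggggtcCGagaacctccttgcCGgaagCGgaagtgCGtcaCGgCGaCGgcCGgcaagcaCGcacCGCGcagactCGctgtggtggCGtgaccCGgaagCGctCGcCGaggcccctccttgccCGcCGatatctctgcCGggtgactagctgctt

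EHF has 4 CG dinucleotides in this window, LAD1 34, ANK3 14, CAMK2G 32 and RPS21 29. The motif CG reads the same on both strands, and its copies cannot overlap. Across 35116 RefSeq promoters of this length the median was 11 and 34.3% held fewer than 5; across the 8637 that lie in a tested region the median was 22 and 3.1% held fewer than 5. The median was 25 for the 908 promoters in regions called higher and 18 for the 802 in regions called lower. LAD1, called lower with 34, shows that the classes overlap widely.

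H3K4me3Q5ser changed beyond H3K4me3 at 2889 of 19495 regions, 14.8% (edgeR's quasi-likelihood test, Benjamini-Hochberg adjusted p under 0.05). It was higher at 1025 regions (5.26%) and lower at 1864 (9.56%). Most of these changes were small: 102 (0.523%) of the higher regions and 468 (2.4%) of the lower ones passed 1.5-fold, and 31 (0.159%) and 91 (0.467%) passed 2-fold. The median over all regions was -0.01 log2 and the quartiles were -0.17 and 0.13. The per-library ratios of H3K4me3Q5ser to H3K4me3 did not overlap between the lines at 12.1% of regions with DDC above and 17.2% with DDC below, called or not. Among called regions losses thus outnumbered gains, and by more among the larger changes. Called or not, 495 regions were at least 1.5-fold higher and 762 at least 1.5-fold lower. A smaller share of the larger gains than of the larger losses was thus called.

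At most called regions H3K4me3Q5ser moved where H3K4me3 did not pass its own test. Taken alone, H3K4me3Q5ser rose at 5745 regions (29.5%) and fell at 6110 (31.3%), and H3K4me3 rose at 1394 (7.15%) and fell at 1936 (9.93%). Depth differs between the marks, so these shares do not compare their sizes of change. Of the 1864 regions called lower, H3K4me3Q5ser fell and H3K4me3 was not called at 1173 (62.9%), both fell at 464 (24.9%), and H3K4me3 rose while H3K4me3Q5ser was not called at 115 (6.17%). Of the 1025 called higher, H3K4me3Q5ser rose and H3K4me3 was not called at 736 (71.8%), H3K4me3 fell while H3K4me3Q5ser was not called at 128 (12.5%), and the marks moved in opposite directions, with H3K4me3Q5ser up, at 59 (5.76%).

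**Figure D1:**
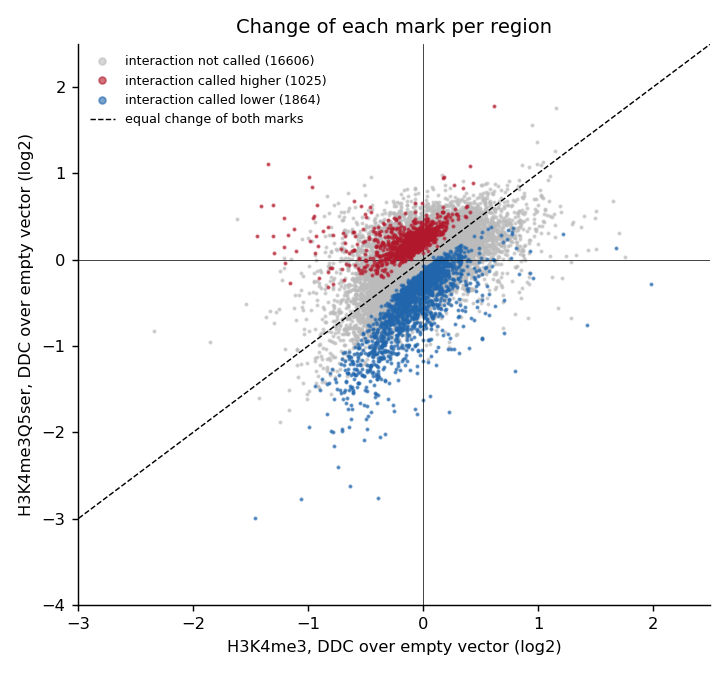
Each point is 1 of 19495 regions, placed by the log2 change of H3K4me3 (horizontal) and of H3K4me3Q5ser (vertical), DDC over empty vector; the dashed line marks equal change and colour marks the interaction call. The 1864 regions called lower spread down to below -2 on the vertical axis while their H3K4me3 values stay mostly within 1 of zero, and the 1025 called higher form a tighter cloud above the line.

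The plot of both changes shows that the regions called lower lay off the line of equal change chiefly along the H3K4me3Q5ser axis. Their median change was -0.39 log2 for H3K4me3Q5ser and -0.04 for H3K4me3. For regions called higher the medians were 0.21 for H3K4me3Q5ser and -0.09 for H3K4me3. At the 102 regions at least 1.5-fold higher they were 0.33 for H3K4me3Q5ser and -0.51 for H3K4me3, so there the change of H3K4me3 was the larger. Levels over input are given for the larger losses. At regions called at least 2-fold lower, the median H3K4me3Q5ser level over input was -2.21 log2 in DDC cells, against -0.87 in empty-vector cells, while H3K4me3 stood at 0.15 in DDC cells, against 0.11 in empty-vector cells. These regions thus held a smaller share of H3K4me3Q5ser than of input in both lines, and of H3K4me3 a share near it. Over all regions the H3K4me3Q5ser medians were -0.29 in DDC cells and -0.23 in empty-vector cells. Those of H3K4me3 were -0.12 and -0.10. Each library, input included, is scaled to its own reads in regions. A level near or below input, here or at single regions below, therefore does not show that enrichment was absent.

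Regions called higher were long and mostly carried an H3K4me3 peak. Their median length was 9902 bases, against 4418 for regions called lower and 4045 for all tested regions, and 82.4% overlapped an H3K4me3 peak, against 91.5% and 63.8%. Of the 102 at least 1.5-fold higher, by contrast, 12.7% overlapped one, and their median length was 2098 bases. Protein-coding starts lay in 9609 tested regions, of which 783 (8.15%) were called higher and 931 (9.69%) lower. Of 3344 intergenic regions 40 (1.2%) were called higher and 383 (11.5%) lower.

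The lower call with the smallest p was the region over ANK3, which encodes ankyrin-G, the adaptor that ties membrane proteins to the spectrin skeleton (chr10:60730550-60736061, GRCh38). H3K4me3Q5ser there measured 46.3, 42.5 and 45.0 CPM (read pairs in the region, scaled to a common library total) in DDC libraries, against 85.0, 86.6 and 82.6 CPM in empty-vector libraries. H3K4me3 measured 161, 168 and 158 CPM in DDC libraries, against 154, 162 and 154 CPM in empty-vector libraries. H3K4me3Q5ser was lower in every DDC library than in every empty-vector library, while the H3K4me3 ranges overlapped. The interaction was -0.97 log2 (SE 0.06, adjusted p = 9.41e-42 in edgeR).

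A region over CYP1B1-AS1, a long noncoding RNA gene next to the cytochrome gene CYP1B1, lost more (chr2:38069265-38077888). H3K4me3Q5ser measured 15, 13.2 and 13.8 CPM in DDC libraries, against 48.4, 52.3 and 47.1 CPM in empty-vector libraries. H3K4me3 measured 59.7, 52.7 and 58.1 CPM in DDC libraries, against 81.2, 81.8 and 74.2 CPM in empty-vector libraries. Both marks were lower in all 3 DDC libraries, and H3K4me3Q5ser by the larger factor. The interaction was -1.34 log2 (SE 0.09).

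HOXB8 and HOXB9, body-patterning transcription factors of the HOXB cluster, share a region (chr17:48615412-48629072). H3K4me3Q5ser measured 68.1, 68.3 and 72.1 CPM in DDC libraries, against 125, 126 and 130.3 CPM in empty-vector libraries, and H3K4me3 161, 171 and 159.6 CPM against 186, 166 and 184 CPM. The H3K4me3Q5ser groups did not overlap; those of H3K4me3 did. The interaction was -0.76 log2 (SE 0.05), and HOXB9 RNA was lower by a log2 change of -2.82.

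ESRP1, a splicing regulator of epithelial cells, gave 2 of the 10 lower calls with the smallest p. Its promoter region (chr8:94638636-94641708) had 7.61, 8.77 and 9.10 CPM of H3K4me3Q5ser in DDC libraries, against 26, 26.9 and 25.6 CPM in empty-vector libraries. H3K4me3 there was level, with 40.2, 43.8 and 43.0 CPM in DDC libraries, against 43.0, 41.9 and 42.2 CPM in empty-vector libraries. The interaction was -1.63 log2 (SE 0.12) at the promoter and -1.74 (SE 0.14) in the next region inside the gene.

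ACOXL, an acyl-CoA oxidase-like gene, had the lowest interaction of the 20 regions taken by p (chr2:110731536-110735485). H3K4me3Q5ser measured 3.74, 3.73 and 4.21 CPM in DDC libraries, against 24.2, 25.7 and 22 CPM in empty-vector libraries. H3K4me3 measured 25.8, 22.1 and 20.2 CPM in DDC libraries, against 36.8, 36.3 and 32.2 CPM in empty-vector libraries. Neither mark overlapped between the lines, and the interaction was -1.99 log2 (SE 0.15), a change of H3K4me3Q5ser 3.97 times lower than that of H3K4me3. No H3K4me3 peak overlapped this region, and input was 33.7, 34.9 and 39.6 CPM in DDC libraries, against 28.7, 32.8 and 34.6 CPM in empty-vector libraries. H3K4me3 thus lay below input in DDC libraries, without overlap, and near it in empty-vector libraries.

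The other 4 lower calls with the smallest p were noncoding or intergenic. An intergenic region on chromosome 3 had an interaction of -0.74 log2, and its neighbour over the long noncoding RNA gene LINC00973 one of -0.58. HIF1A-AS3, a noncoding gene beside HIF1A, had -0.59. A region on the unplaced scaffold GL000205.2 had -0.63. Input fell too at 3 of them, by 0.48 log2 at the intergenic region (adjusted p = 1.35e-09), by 0.21 at HIF1A-AS3 (adjusted p = 0.00963) and by 0.51 at the scaffold (adjusted p = 3.84e-09, all edgeR); at LINC00973 it was -0.17 (adjusted p = 0.108). An input change enters both marks, and its part in these interactions was not tested.

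**Figure D2:**
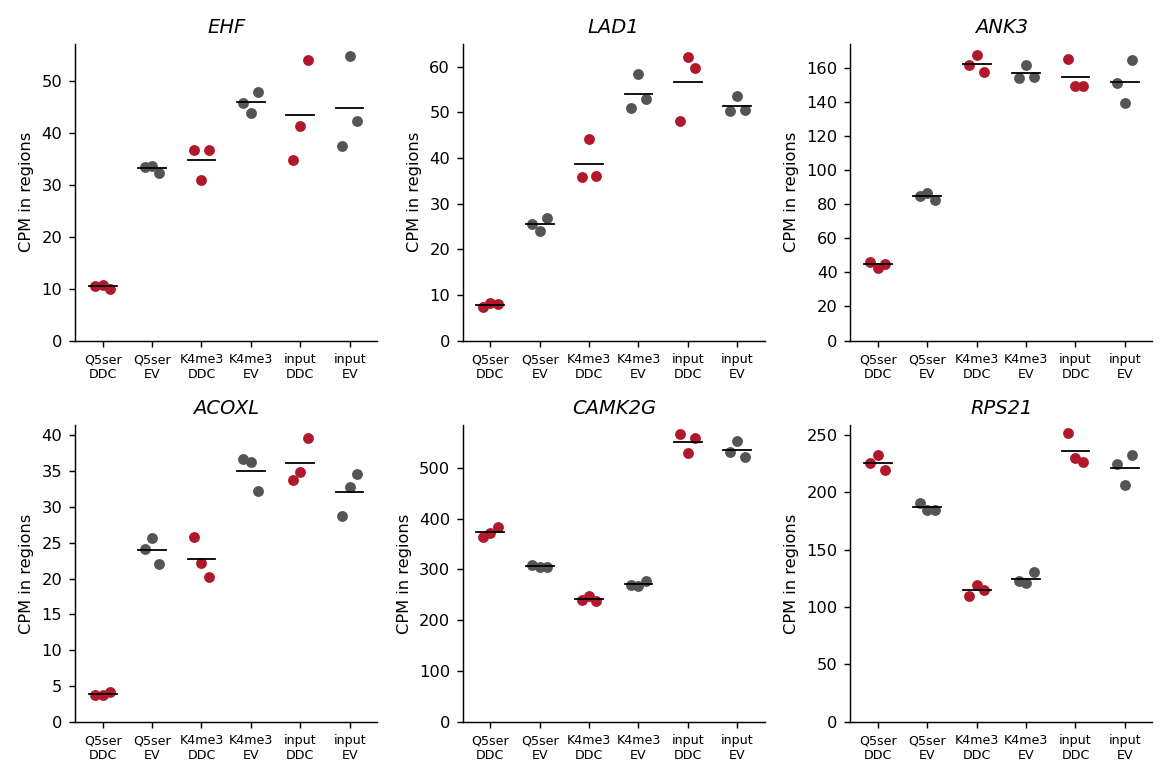
CPM in regions per library at 6 regions (one panel each), for H3K4me3Q5ser (Q5ser), H3K4me3 (K4me3) and input, with DDC libraries in red and empty-vector (EV) libraries in grey; points are libraries and bars are means of 3. H3K4me3Q5ser of DDC libraries sits below that of EV libraries without overlap at EHF, LAD1, ANK3 and ACOXL, and above it at CAMK2G and RPS21.

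The higher calls with the smallest p were of modest size. The panels per library show one of them, CAMK2G, which encodes a subunit of calcium- and calmodulin-dependent kinase (chr10:73866026-73881724). H3K4me3Q5ser measured 364, 373 and 384 CPM in DDC libraries, against 308, 304 and 305 CPM in empty-vector libraries. H3K4me3 measured 240.5, 248 and 238 CPM in DDC libraries, against 269.6, 267 and 276 CPM in empty-vector libraries. The marks moved in opposite directions with no overlap between lines in either. The interaction was 0.45 log2 (SE 0.04, adjusted p = 6.64e-22 in edgeR). Input there was above both marks, at 568, 530.0 and 558 CPM in DDC libraries, against 532, 553 and 522 CPM in empty-vector libraries.

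The higher call with the smallest p was a stretch of 119521 bases that starts with EEF1G, a subunit of translation elongation factor 1, and holds further genes (chr11:62568130-62687650). H3K4me3Q5ser measured 1247, 1256 and 1251 CPM in DDC libraries, against 1085, 1088 and 1093 CPM in empty-vector libraries, while H3K4me3 overlapped, with 684, 713 and 703 CPM against 724, 677 and 677 CPM. The interaction was 0.18 log2 (SE 0.01), and input rose by 0.09 log2 (adjusted p = 0.0379 in edgeR). The chromatin-remodelling subunit gene DPF3 had a similar value, 0.17, with both marks and input higher. DPF3 RNA was lower by a log2 change of -0.36.

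Of the 10 higher calls with the smallest p, 3 were neighbours near the end of chromosome 8: the cleavage and polyadenylation factor gene CPSF1 and its neighbours at 0.25 log2, MFSD3 with the helicase gene RECQL4 at 0.32, and TMEM249 at 0.41. NME3, a nucleoside diphosphate kinase gene, had 0.56, and TEPSIN, which encodes an adaptor-protein partner, 0.57. At both, H3K4me3Q5ser rose while H3K4me3 fell, by 0.41 log2 at NME3 and by 0.31 at TEPSIN. TNFRSF6B, a decoy receptor gene, had 0.43. POLR2J3 had 0.55, but it has near-identical copies that share reads, so its value is uncertain.

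The RNA of the same lines is a readout the interaction did not use. Where both were called they had the same sign more often than opposite signs, and changes of at least 2-fold in either were more often lower than higher. By limma on log2(normalised value + 1), 1175 of 13146 genes (8.94%) were higher in DDC cells and 1106 (8.41%) lower, 67 and 315 of them at least 2-fold. Of 9739 protein-coding genes with an RNA test and a promoter in a tested region, 8.85% had a region called lower. Of the 153 whose RNA was at least 2-fold lower, 66 (43.1%) did, with a median interaction of -0.21 log2, and 4 (2.61%) had one called higher. Of the 13 at least 8-fold lower in RNA, 9 (69.2%) had a region called lower and 2 (15.4%) one called higher. For genes at least 2-fold lower in RNA, the share with a region called lower ran from 37.3% to 46.4%. That range covers the alternatives run for the interaction, and edgeR on the recovered RNA reads.

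Read the other way, over all calls the shares were alike on both sides. Of 862 genes with a region called lower, RNA fell at 161 (18.7%) and rose at 39 (4.52%); of 1086 with a region called higher, RNA rose at 200 (18.4%) and fell at 40 (3.68%). The shares were larger for the larger losses. Of 16 genes whose promoter region was called at least 2-fold lower, RNA fell at 13 (81.2%) and rose at 0; of 58 called at least 1.5-fold lower it fell at 40 (69%) and rose at 3. Of 17 called at least 1.5-fold higher it rose at 0 and fell at 1. Of the 30 genes whose RNA was at least 2-fold higher, 6 (20%) had a region called higher and 0 had one called lower, beside 11.2% of all 9739 with one called higher. Genes that share a region are counted each. The RNA and ChIP libraries come from the same lines, and whether fewer cells of one kind or less of the transcript per cell underlies a lower value cannot be told apart.

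**Figure D3:**
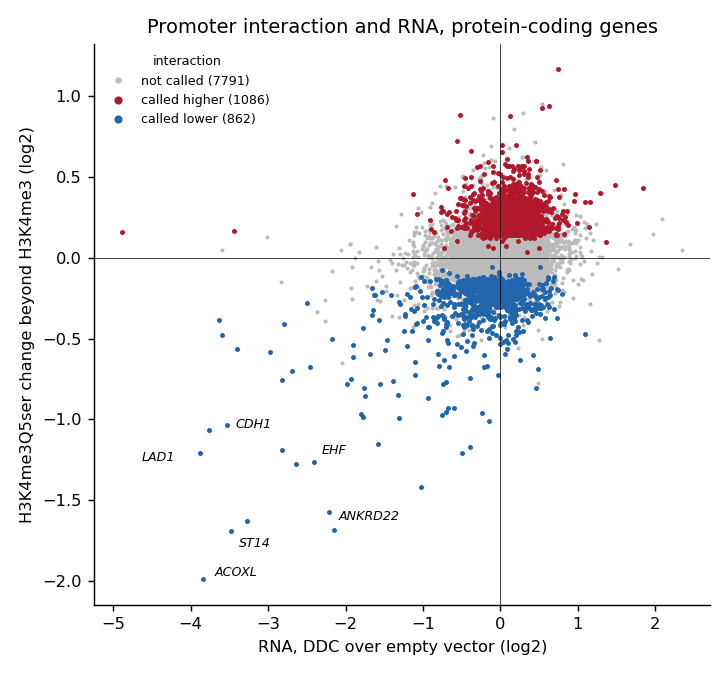
Each point is 1 of 9739 protein-coding genes, placed by its RNA change (horizontal, log2 of normalised value + 1, DDC over empty vector) and by the interaction at its promoter region (vertical, log2), coloured by the interaction call. Points with RNA below -2 and an interaction below -1 include ACOXL, ST14, ANKRD22, EHF, LAD1 and CDH1, and the upper right has no such tail.

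At the lower left of the RNA plot, 12 promoters were at least 2-fold lower in both the interaction and RNA: ESRP1, ACOXL, EHF, ANXA10, LAD1, ANKRD22, ST14, MPZL2, LRRC38, ZMAT4, DAPP1 and CDH1. They were picked after their values were seen, and their RNA changes ran from -1.58 to -3.89 log2. Input was not called changed at any of the 11 that had an input test.

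EHF is an ETS-family transcription factor of epithelia (region chr11:34620678-34624699). H3K4me3Q5ser measured 10.5, 10.8 and 10.0 CPM in DDC libraries, against 33.5, 33.7 and 32.3 CPM in empty-vector libraries. H3K4me3 measured 36.8, 31.0 and 36.6 CPM in DDC libraries, against 45.8, 43.9 and 48.0 CPM in empty-vector libraries. Both marks were lower in all DDC libraries, and the interaction was -1.26 log2 (SE 0.12). EHF RNA was 17.3, 30.1 and 10.7 in DDC libraries, against 90.4, 92.3 and 116 in empty-vector libraries. The sequence of its promoter, shown above, is CG-poor, unlike that of LAD1.

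LAD1 encodes ladinin, a protein of epithelial basement membranes (region chr1:201397318-201400029). H3K4me3Q5ser measured 7.30, 8.28 and 8.03 CPM in DDC libraries, against 25.5, 24.1 and 26.9 CPM in empty-vector libraries. H3K4me3 measured 35.8, 44.2 and 36.0 CPM in DDC libraries, against 50.9, 58.4 and 53.0 CPM in empty-vector libraries. Neither mark overlapped between the lines, and the interaction was -1.21 log2 (SE 0.12). LAD1 RNA was 14.2, 4.3 and 12.7 in DDC libraries, against 159, 155 and 142 in empty-vector libraries.

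ST14 encodes matriptase, a membrane serine protease of epithelia (region chr11:130159798-130161873). H3K4me3Q5ser measured 2.43, 1.99 and 2.68 CPM in DDC libraries, against 9.47, 9.99 and 9.98 CPM in empty-vector libraries. H3K4me3 measured 11.1, 10.5 and 12 CPM in DDC libraries, against 14.7, 13.4 and 15.5 CPM in empty-vector libraries. The interaction was -1.69 log2 (SE 0.22), and H3K4me3, although lower in all 3 DDC libraries, did not pass its test (-0.37, adjusted p = 0.0955 in edgeR). ST14 RNA was 8.13, 12.9 and 11.7 in DDC libraries, against 121, 127 and 141 in empty-vector libraries.

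CDH1 encodes E-cadherin, the adhesion protein of epithelial junctions (region chr16:68737025-68738884). H3K4me3Q5ser measured 3.68, 3.86 and 4.28 CPM in DDC libraries, against 10.2, 8.04 and 8.48 CPM in empty-vector libraries. H3K4me3 overlapped, with 11.1, 7.75 and 7.58 CPM in DDC libraries, against 8.20, 10.7 and 9.59 CPM in empty-vector libraries. The interaction was -1.04 log2 (SE 0.23, adjusted p = 0.000283 in edgeR). CDH1 RNA was 3.05, 2.15 and 5.85 in DDC libraries, against 64.3, 38.2 and 52.4 in empty-vector libraries.

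At ST14, CDH1, LRRC38, ZMAT4, DAPP1 and ACOXL no H3K4me3 peak overlapped the region, and at CDH1 H3K4me3 stood near the input, which was 11.4, 9.89 and 13 CPM in DDC libraries and 11.7, 8.71 and 7.14 CPM in empty-vector libraries. ANKRD22 had an interaction of -1.58 log2, MPZL2, an epithelial adhesion gene, -1.06, LRRC38 -1.28, ZMAT4 -1.69, DAPP1 -1.19 and ANXA10 -1.15.

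The gene lists put these promoters beside their families. Among 11 regions of luminal epithelial genes, 4 were called lower and 0 higher, beside 9.56% lower over all regions, with a median of -0.06 log2 against -0.01 for all regions. The 4 are ESRP1, CDH1, the epithelial transcription factor gene GRHL2 at -1.50 (SE 0.12) and the keratin gene KRT7 at -0.39, while CLDN7, a tight-junction gene whose RNA was lower by a log2 change of -3.59, had an interaction of 0.05 and was not called. The pooled epithelial markers KRT8, KRT18, KRT19 and EPCAM lay in 3 regions, with 0 called, and EPCAM RNA was lower by a log2 change of -1.91. Of 8 mesenchymal regions 0 were called, and of the 3 neuroendocrine-marker regions 0. No promoter of the haematopoietic or endothelial markers, or of CHGA, SYP and INSM1, lay in a tested region. The fibroblast marker gene COL1A1 had one, called lower at -0.32 but lost in 13 of 32 refits, those that left out single H3K4me3 or H3K4me3Q5ser libraries among them (largest adjusted p = 0.189 in edgeR).

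Of 11 regions of NF-kB targets and cytokines 8 were called lower and 0 higher, beside 9.56% lower over all regions, with a median of -0.23 log2. CXCL1, a neutrophil chemokine gene, had H3K4me3Q5ser of 69.2, 72.2 and 68.9 CPM in DDC libraries, against 109, 113 and 112 CPM in empty-vector libraries, and H3K4me3 of 118, 117 and 122 CPM against 144, 148 and 148 CPM. Neither overlapped, and the interaction was -0.37 log2 (SE 0.06). BIRC3, an inhibitor of apoptosis, had -0.40 (SE 0.05) and the chemokine gene CXCL8 -0.39 (SE 0.06). Input fell at all 3, by 0.34 log2 at CXCL1, 0.33 at BIRC3 and 0.38 at CXCL8, and the median input change of the list was -0.31. With offsets that remove the dependence on GC content, 4 of the 8 were called, CXCL1 and BIRC3 among them and CXCL8 not (adjusted p = 0.151 in edgeR); the part of input in the list was not tested.

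Of 76 regions of ribosomal protein genes 29 were called higher and 0 lower, with a median of 0.15 log2. Higher calls made up 5.26% of all regions and 8.15% of those with a protein-coding start. With GC offsets 20 of the 76 were called higher and 0 lower. RPS21, which encodes a protein of the small ribosomal subunit, had H3K4me3Q5ser of 226, 233 and 219 CPM in DDC libraries, against 191, 185 and 185 CPM in empty-vector libraries, and H3K4me3 of 109, 119.7 and 115 CPM against 122, 121 and 131 CPM. Both marks were without overlap between lines, in opposite directions, though H3K4me3 did not pass its test alone. The interaction was 0.40 log2 (SE 0.06); RPS2 had 0.36 (SE 0.06) and RPS18 0.19 (SE 0.03). Pseudogenes share sequence with these genes, but the regions reach far beyond their exons.

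**Figure D4:**
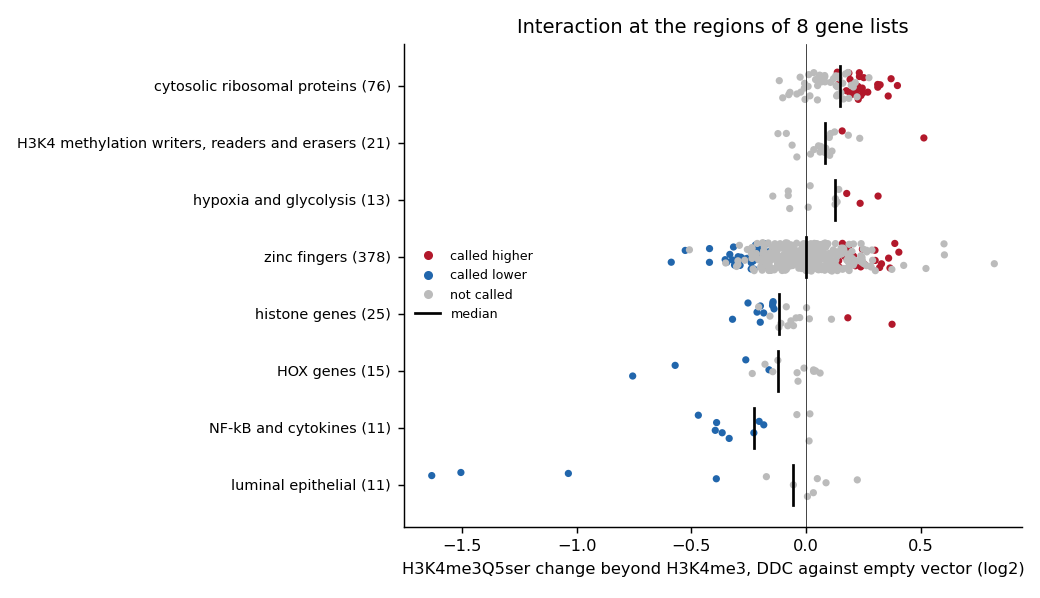
Each point is 1 region holding a promoter of a listed gene, placed by its interaction (log2, DDC against empty vector) and coloured by its call, with the number of regions in brackets and black bars at the medians. Ribosomal regions lie mostly right of zero (median 0.15), NF-kB regions left of it (median -0.23), and 3 luminal epithelial regions lie below -1.

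Among 378 zinc finger regions 21 were called higher and 35 lower, near the 5.26% and 9.56% of all regions, with a median of -0.00 log2. Taken alone, H3K4me3Q5ser rose at 223 and H3K4me3 at 158 of them, with a median change of 0.15 for each mark and 0.15 for input. ZNF248 had H3K4me3 of 695, 672 and 704 CPM in DDC libraries, against 557, 568 and 555 CPM in empty-vector libraries, and H3K4me3Q5ser of 645, 626 and 632 CPM against 579, 589 and 586 CPM. Both marks rose and H3K4me3 by more, so the interaction was lower (-0.18, SE 0.03). Histone genes lie in 25 regions, most of them in the cluster on chromosome 6, with 10 called lower and 2 higher; with GC offsets 4 were called lower and 1 higher. The region of H3C1, H3C2 and H2AC4 had -0.32 (SE 0.04), with input lower by 0.21 log2 (adjusted p = 0.016 in edgeR). Of 15 HOX regions 4 were called lower and 0 higher, and with GC offsets 6.

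TGM2, the transglutaminase that joins serotonin to histone H3, was the single transglutaminase gene tied to a tested region (chr20:38161312-38165881). That region does not cover the TGM2 start but begins 697 bases downstream of it. H3K4me3Q5ser there measured 25.4, 26.4 and 29.8 CPM in DDC libraries, against 45.6, 43.5 and 43.7 CPM in empty-vector libraries, and H3K4me3 49.2, 50.8 and 52.9 CPM against 62.2, 62.0 and 57.1 CPM. Neither overlapped, H3K4me3Q5ser fell by more, and the interaction was -0.47 log2 (SE 0.09, adjusted p = 2.01e-05 in edgeR), with a TGM2 RNA change of -0.49. Of 6 regions of serotonin and tryptophan genes 2 were called lower: MAOA, which breaks serotonin down, at -0.40, where H3K4me3 rose by 0.31, and KMO, of the kynurenine pathway, at -0.32, not called with GC offsets (adjusted p = 0.142 in edgeR). Over all regions with a protein-coding start 9.69% were called lower, and a count from 6 regions is too small to set against that share. MAOA lost its call in 6 fits that left libraries out, such as without H3K4me3 replicate 3 of either line (-0.26 at the weakest, largest adjusted p = 0.236). The DDC promoter lay in no tested region, nor did those of S100A8 and S100A9.

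Among 21 regions of H3K4 methylation writers, readers and erasers 2 were called higher and 0 lower, beside 8.15% higher over all regions with a protein-coding start. Both encode H3K4 methyltransferases. KMT2B had H3K4me3Q5ser of 39.9, 39.2 and 38.3 CPM in DDC libraries, against 36.6, 36.2 and 34.2 CPM in empty-vector libraries, and H3K4me3 of 23.7, 25.1 and 22.3 CPM against 29.7, 30.3 and 32.0 CPM. The marks parted without overlap, and the interaction was 0.51 log2 (SE 0.12). KMT2D had 0.16 (SE 0.05), with input higher by 0.31 log2, and was not called with GC offsets nor in 5 fits that left libraries out (largest adjusted p = 0.129 in edgeR). Of 13 hypoxia and glycolysis regions 3 were called higher, VEGFA at 0.31, ALDOA at 0.23 and ENO1 at 0.18, and with GC offsets 0. ENO1 lost its call in 17 of 32 refits and ALDOA in 5. VEGFA RNA was lower by a log2 change of -0.76, and the RNA changes of ALDOA and ENO1 did not pass their test.

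Of 11 regions of the unfolded protein response 2 were called higher, CALR, a chaperone gene, at 0.19 and DDIT3 at 0.24, and DNAJB9 lower at -0.26. G1/S genes had 2 of 16 called higher, MCM7 at 0.18 and CDC45 at 0.22, and the 15 mitotic regions 0. Over all regions with a protein-coding start 8.15% were called higher and 9.69% lower, so counts this small are not read as results about these lists. FOXA2 was called higher at 0.24 and its relative FOXA1 lower at -0.13, and PEG10 lower at -0.16. The cholesterol gene SC5D was lower at -0.25, S100A10 lower at -0.18, and the region shared by S100A14 and S100A16 higher at 0.16. S100A14 RNA went the other way, with a log2 change of -4.89, while S100A16 RNA was higher by 0.38. FOXA1 and CALR were called in all 32 refits, whereas the other calls in this group of lists were lost in 1 to 24 of them. DDIT3, DNAJB9, CDC45, FOXA2, PEG10, SC5D and the S100A14 region were not called with GC offsets. MCM7 was not called without H3K4me3 replicate 2 of the empty-vector line (largest adjusted p = 0.0679), and S100A10 without H3K4me3 replicate 2 or 3 of that line or 3 of the DDC line (largest adjusted p = 0.134, all edgeR). The 4 metallothionein regions gave 0 calls although MT2A RNA was higher by a log2 change of 1.52, with an interaction at MT2A of -0.07 (adjusted p = 0.61 in edgeR) and at MT1X of 0.24 (adjusted p = 0.337).

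The interaction followed base composition over the whole table. Across 19440 regions its Spearman correlation with GC content was 0.34, as a description, since neighbouring regions share libraries. In the lowest quintile of GC content 0.386% of regions were called higher and 23% lower, and in the highest quintile 11.9% higher and 2.52% lower. The input change followed GC content as well, with a Spearman correlation of 0.26 across 17990 regions; the H3K4me3Q5ser change had 0.12 and the H3K4me3 change -0.15. The part of input and base composition in the interaction was not tested.

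**Figure D5:**
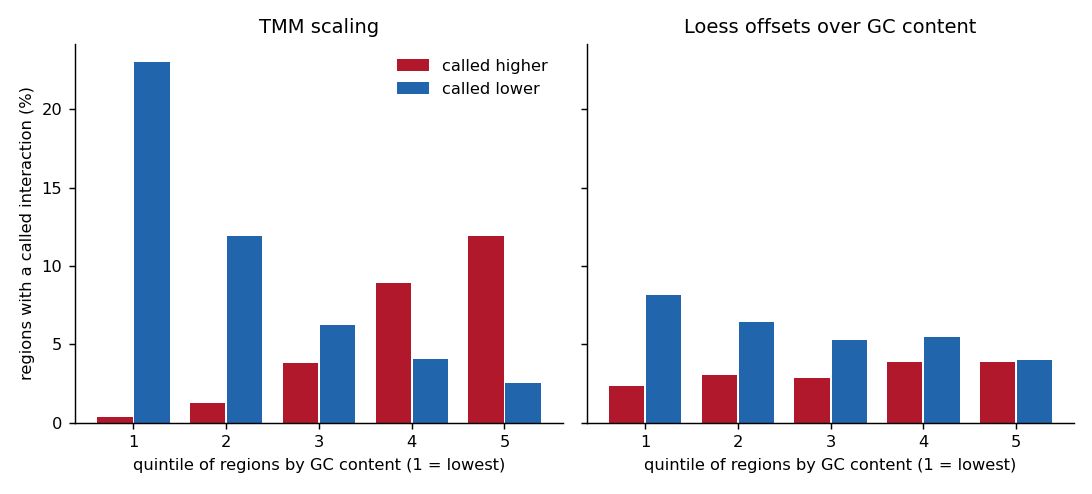
Percentage of regions called higher (red) or lower (blue) in each quintile of GC content, with TMM scaling (left) and with loess offsets over GC content (right). With TMM scaling lower calls go from 23% in the lowest quintile to 2.52% in the last and higher calls from 0.386% to 11.9%; with offsets the same quintiles hold 8.13% and 4.01% lower and 2.37% and 3.88% higher.

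The same shift showed in single libraries as shares of reads. In the highest quintile of GC content, the log2 ratio of the H3K4me3Q5ser share to the H3K4me3 share of reads was 0.18, 0.15 and 0.16 in DDC pairs of libraries, against 0.03, -0.01 and 0.02 in empty-vector pairs. In the lowest quintile it was -0.26, -0.25 and -0.26 in DDC pairs, against -0.16, -0.14 and -0.16 in empty-vector pairs. The lines did not overlap in either class, with a difference of 0.15 and of -0.10 and an exact two-sided permutation p of 0.10, the smallest that 3 against 3 allows. Replicate numbers name these pairs, and whether same-numbered libraries share a culture is not known.

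With offsets fitted over GC content, 623 regions were called higher and 1148 lower. Of the regions called with TMM scaling, 46% of the higher and 55.4% of the lower were called again, and of those at least 2-fold lower 95.6%. Of the 153 promoters with RNA at least 2-fold lower, 62 (40.5%) were then called lower, against 5.89% of all regions. Most regions at least 2-fold lower thus kept their call with GC offsets, while many of the smaller changes did not.

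Input libraries, which carry no antibody, gave the size of the line difference outside the marks. Input changed at 485 of 18025 regions upward (2.69%) and at 650 downward (3.61%). Among the 1826 regions called lower in the interaction that had an input test, input was lower at 239 and higher at 20, and among 1008 called higher it was higher at 85 and lower at 6. At regions called at least 1.5-fold lower it was lower at 61 of 430 and higher at 5. At regions called at least 2-fold lower it was lower at 3 of 73 and higher at 2. The median input change was -0.22 log2 in each of these 2 classes, against 0.01 over all regions.

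SLC6A4, the transporter that brings serotonin into cells, gave a second line against the same empty-vector libraries, so its own interaction is not independent of the one with DDC. In the difference of the interactions those libraries cancel. It was tested on all 18 ChIP libraries and was higher with DDC at 1093 regions (5.61%) and lower at 1896 (9.73%). Among the larger differences the order turned, with 440 (2.26%) at least 1.5-fold higher with DDC and 102 (0.523%) lower, and 138 (0.708%) and 17 (0.0872%) at least 2-fold. The interaction with SLC6A4 was itself called at 5700 regions (29.2%), 283 of them at least 2-fold lower. It was called higher at 14.5% of all regions, and at each of the 10 higher calls with the smallest p. Among those 10, only EEF1G and CPSF1 had a difference that passed the test. At CAMK2G the interaction was 0.44 log2 with SLC6A4, beside 0.45 with DDC. At RPS21 it was 0.43 with SLC6A4, beside 0.40 with DDC. EHF, whose interaction was -1.26 log2 with DDC, had a difference of -0.95 (adjusted p = 6.38e-10 in edgeR), and ANK3 one of -0.51 (adjusted p = 3.54e-13). At CDH1 the interaction with SLC6A4 was -0.97, and the difference of -0.07 did not pass the test (adjusted p = 0.879). The same held for ANXA10, with -1.14 for SLC6A4 and a difference of -0.02 (adjusted p = 0.963), and for MPZL2. At ZMAT4 and DAPP1 the differences were larger, -0.62 and -0.41, and did not pass the test (adjusted p = 0.22 and 0.371 in edgeR). That does not show that the lines were alike there.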

How the data were processed

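Per the file headers, the region table holds estimated counts that the authors made with featureCounts 2.0.3, as read pairs per region with fractional sharing of multiple and overlapping hits; 10.97% of cells in the 12 libraries held fractions, and these estimated counts were rounded. Alignment with Bowtie2 to GRCh38 and peaks from MACS2 are named in the submitters' processing notes; how peaks were combined is not given in the sources used here, and the header's strand setting beside regions without strand may drop reads in every library alike. RNA values are deposited signal, reads divided by size factors (HISAT2 2.1.0 and DESeq2, per the submitters' processing notes); whole reads were recovered for 100% of values (tolerance 1e-06).

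The interaction, (H3K4me3Q5ser DDC minus empty vector) minus (H3K4me3 DDC minus empty vector), was fitted with edgeR 4.0.16 in R 4.3.3 (quasi-likelihood F-test, TMM, filterByExpr, 8 residual degrees of freedom) and adjusted by Benjamini-Hochberg over all regions; a call needs adjusted p under 0.05, and 1.5-fold means 0.58 log2. The common dispersion, 9.77e-05, sits near counting noise. CPM are TMM-scaled. RNA used limma 3.58.1 with trend on log2(value + 1), for genes at 10 or more in at least 3 libraries; folds of low genes are understated. Tests were checked on simulated data. Genes were tied to regions by GENCODE 44 starts within 1000 bases, and peak overlap needs 1 base. H3K4me3Q5ser changes share libraries with the interaction and do not stand apart from it.

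Named regions are the 10 with the smallest adjusted p per direction whose mean log2 CPM reaches 1 and with no overlap of the per-library ratios of H3K4me3Q5ser to H3K4me3; named genes are up to 3 per list by p, plus TGM2, CDH1 and MT2A. Further list members are named where a count of 5 or fewer is given, and were chosen after their values were seen. Members and lists were chosen with earlier results of these data known. Alternatives were library-size, upper-quartile and within-mark scaling, DESeq2 1.42.0, limma voom, filters, unrounded counts, replicate blocks, all 18 ChIP libraries of the 3 lines, GC and level offsets, agreeing libraries as 1, and leaving libraries out. The replicates agreed within sampling noise for 1 H3K4me3Q5ser pair of the empty-vector line, 1 H3K4me3 pair of the DDC line and 2 of the empty-vector line; counted as 1 sample each, the DDC line has 3 H3K4me3Q5ser and 2 H3K4me3 samples and the empty-vector line 2 and 1.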

Additional observations from a re-analysis of the deposited data

Results flagged for a closer look

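The interaction with DDC differed from the interaction with SLC6A4 at 38 of the 85 named regions and promoters (edgeR's quasi-likelihood test on 18 ChIP libraries, adjusted p under 0.05 over all regions): it was lower with DDC at 33 and higher at 5. Over all regions 9.73% were lower with DDC and 5.61% higher. The named regions and promoters were chosen mainly by their p or value in the interaction with DDC. The same DDC libraries enter the difference, so the choice favours differences, and these counts do not stand apart from it. The empty-vector libraries enter both interactions and cancel in their difference, which is given below in log2, DDC minus SLC6A4.

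Among the named regions and promoters, the largest differences lay at noncoding regions and at promoters of genes whose RNA fell with DDC. Over all regions, differences of at least 2-fold went mostly the other way, with 138 higher with DDC and 17 lower. LRRC38 differed by -1.02, ST14 by -1.01, CYP1B1-AS1 by -0.998, ACOXL by -0.996, EHF by -0.95, ANKRD22 by -0.95 and LAD1 by -0.67. The region inside ESRP1 differed by -0.98 and its promoter by -0.46, as did GRHL2 by -0.46. At these promoters the SLC6A4 interaction was lower than zero as well, for example -1.18 at the ESRP1 promoter against -1.63 with DDC. At other regions it was near zero: LINC00973 differed by -0.70, with 0.11 for SLC6A4, the intergenic region on chromosome 3 by -0.68, with -0.07, and HIF1A-AS3 by -0.64, with 0.05. ANK3 differed by -0.51 and HOXB8 by -0.42.

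Among listed genes, TGM2 differed by -0.49, with 0.02 for SLC6A4, SNAI2 by -0.43, PEG10 by -0.41, CXCL1 by -0.33, FOXA1 by -0.29, S100A10 by -0.29, SC5D by -0.29 and DNAJB9 by -0.27. Smaller negative differences were found for BIRC3 (-0.24), MT2A (-0.24), KRT19 (-0.23), BIRC5 (-0.23), VEGFA (-0.23), ENO1 (-0.20), H2AC4 (-0.18), FOXA2 (-0.16), CDC20 (-0.13) and ZNF248 (-0.13). The interaction was higher with DDC at MT1X by 0.52, ZNF623 by 0.21, RPS18 by 0.14, CPSF1 by 0.13 and EEF1G by 0.12.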

How the results depend on the processing

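The counts of called regions held within 1.5 times under 13 of 14 alternatives that kept all 12 libraries; the exception, added after seeing the data, was offsets over GC content, with 623 higher and 1148 lower. A fold minimum of 1.5 left 102 higher and 468 lower, and of 2 left 31 and 91; for H3K4me3Q5ser these were 267 and 1275, then 12 and 345, and for H3K4me3 187 and 325, then 28 and 41. DESeq2 called 854 higher and 1426 lower and gave no adjusted p for 92 of the 2889 called regions, 28 of them among the 31 at least 2-fold higher. Counting agreeing libraries as 1 gave 947 and 1692, and library-size scaling 928 and 2049.

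Leaving libraries out gave 719 to 1041 higher and 1400 to 1813 lower. For input it gave 301 to 358 higher and 413 to 495 lower, with 301 and 413 without DDC input replicate 2 and 311 higher without empty-vector input replicate 3. RNA gave 708 to 1041 genes lower, with 734 without empty-vector replicate 1 and 708 without replicate 2. Same-numbered libraries did not deviate together (correlations under 0.04 in size). Replicates differed by little more than sampling noise, so this could not show whether libraries of the same number shared a culture. The replicate block gave 1008 higher and 1833 lower. The H3K4me3 change at CPSF1, -0.11, reversed to 0.039 with GC offsets; the cause was not tested.

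Of 53 called named regions, 1571 of 1695 refits kept the call, 124 lost it and 0 reversed. GC offsets ended the calls of ALDOA, CDC45, CXCL8, DDIT3, DNAJB9, ENO1, FOXA2, KMO, KMT2D, PEG10, S100A14, SC5D and VEGFA. CDC45, PEG10, S100A14, ENO1 and COL1A1 each lost theirs in 13 or more refits.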

Other observations

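By size alone, the largest losses beyond H3K4me3 were a region inside TC2N at -2.36 log2, a region on chromosome 21 over a noncoding gene at -1.99, ACOXL at -1.99, the region inside ESRP1 at -1.74 and the promoter of MACC1, a regulator of the MET receptor gene, at -1.71. The largest gains were short: 2.03 in a region of 329 bases inside SPDYE2B, which has near-identical copies that share reads, 1.94 in an intergenic region of 246 bases on chromosome 2, 1.55 in an intergenic region of 690 bases on chromosome 7, and 1.46 inside DENND6B and inside NOC4L. None of these gains overlapped an H3K4me3 peak, and at each H3K4me3 fell by more than H3K4me3Q5ser rose. Their changes ran from -1.41 to -0.92 log2 for H3K4me3 and from 0.29 to 0.64 for H3K4me3Q5ser. H3K4me3 was low there, with 0.52, 0.68 and 1.26 CPM in DDC libraries inside SPDYE2B, against 2.55, 2.23 and 2.06 CPM in empty-vector libraries. Inside DENND6B H3K4me3Q5ser alone was not called (adjusted p = 0.0684 in edgeR). H3K4me3 alone was not called inside DENND6B, inside NOC4L or in the intergenic region on chromosome 7 (adjusted p = 0.0767, 0.0796 and 0.0833 in edgeR). The intergenic region on chromosome 2 had a GC content of 95.9% without any CG dinucleotide, so its value is uncertain. Its interaction with SLC6A4 was 1.99.

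By chromosome the median interaction was 0.10 log2 on chromosome 16, 0.08 on 19, 0.06 on 17 and 0.06 on 22, and -0.09 on 4, -0.08 on 6 and -0.08 on 18. Median GC content of the regions was 51.4% on 16, 51.4% on 19, 49.7% on 17 and 53.0% on 22, and 43.7% on 4, 44.1% on 6 and 45.7% on 18. Lower calls made up 1.35% of regions on chromosome 16 and 17.1% on chromosome 4.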
